A study of Homo sapiens with 6 samples.

Results

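The 9 genes described here encode enzymes of the pentose phosphate pathway and other enzymes that make NADPH. PGD and PGLS belong to the oxidative branch of the pathway, and RPIA, RPE, TKT and TALDO1 belong to the non-oxidative branch. ME1, IDH1 and IDH2 make NADPH outside the pathway. They were chosen by name from the 58735 genes of the authors' count table, and all 9 were found once each. RNA was sequenced from A549 cells, a human lung adenocarcinoma line, with 3 libraries from cells that overexpress IL17D, a secreted cytokine of the IL-17 family, and 3 libraries from cells that overexpress an empty vector (control). By the study's methods, the IL17D open reading frame was carried by a lentiviral vector with the human PGK promoter and a GFP cassette, and both cell lines were grown in RPMI1640 medium with fetal bovine serum. Whether the 3 libraries within a group stem from distinct transductions or cultures is not stated in the labels or methods, so the p-values measure the spread between these libraries, which may be technical.

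NADPH is the electron donor that cells use to build lipids and to keep glutathione and thioredoxin reduced. In the oxidative branch, glucose 6-phosphate is converted to ribulose 5-phosphate and NADPH is formed. The reversible non-oxidative branch interconverts pentose phosphates with intermediates of glycolysis. It can therefore supply ribose for nucleotides or return carbon to glycolysis. A549 cells carry an inactivating mutation in KEAP1, the adaptor that marks the transcription factor NRF2 for degradation, and PGD, TKT, TALDO1, ME1 and IDH1 are known NRF2 target genes.

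The libraries held 14319398 to 16521021 counts on genes, and the share on mitochondrial genes was 6.85% to 7.25% in control and 6.88% to 7.36% in IL17D-overexpressing libraries. IL17D had 18 to 34 counts in the control libraries and 26772 to 32155 in the IL17D-overexpressing libraries, which is the direction the labels give. The keratins KRT8 and KRT18 had at least 50425 counts in every library, whereas the epithelial genes EPCAM and KRT19 had only 9 to 21 and 3 to 11 counts. Of the 12 markers of other cell types, PTPRC, CD3E and HBB had no count in any library. COL1A1 had 274 to 394 counts, and the other 11 markers together had 24 to 36 counts in control and 17 to 46 in IL17D-overexpressing libraries. Over all tested genes, 1.58% passed the test described below in either direction and 0.908% were called lower. Of the 7 tested epithelial and A549 markers, 3 passed the test and all 3 were lower in IL17D-overexpressing cells. These were CDH1, ALDH3A1 and ALDH1A1 (log2 fold changes of -0.28, -0.22 and -0.090), and their part in the results below was not tested.

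In IL17D-overexpressing cells, 7 of the 9 enzyme genes had a lower level and 2 had a higher level than in control cells, and every difference was small. Over all tested genes, 7896 of 15754 had a lower level. TKT fell by 8.28%, and it was the only member that passed the test. PGD, TALDO1 and IDH1 were lower in all 3 IL17D-overexpressing libraries than in any control library, by 6.21%, 6.60% and 7.70% in the fit, but did not pass the test. For PGLS, RPIA and RPE the fitted difference was 2.57% or less in size. In these bulk samples, fewer cells with a transcript and less of it per cell cannot be told apart, and all levels are relative to the other RNA of the library.

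Each gene was compared between the groups with edgeR's quasi-likelihood test on the counts of all 15754 genes that passed the filter on low counts, with Benjamini-Hochberg adjustment over those genes and a threshold of 0.05. All 9 members passed the filter. Over all tested genes 1.58% passed the test in either direction and 0.908% were called lower, against 1 of the 9 members, called lower. At an unadjusted p under 0.05, 4 of the 9 members were lower, against 5.99% of all tested genes. The same 4 members were those whose 3 IL17D-overexpressing libraries all lay below the 3 control libraries, which held for 8.31% of all tested genes. Abundant genes are measured with less error, and the members are abundant. Among the 7074 tested genes at least as abundant as RPIA, the least abundant member, 1.64% were called lower and 9.43% had libraries that did not overlap and were lower. By mean CPM, TKT, PGD, TALDO1 and IDH1 ranked 32, 63, 415 and 1124, so this set holds many genes less abundant than these 4. The shares among genes as abundant as these 4 were not computed. The median log2 fold change was -0.089 over the members and -0.00044 over all tested genes.

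**Figure D1:**
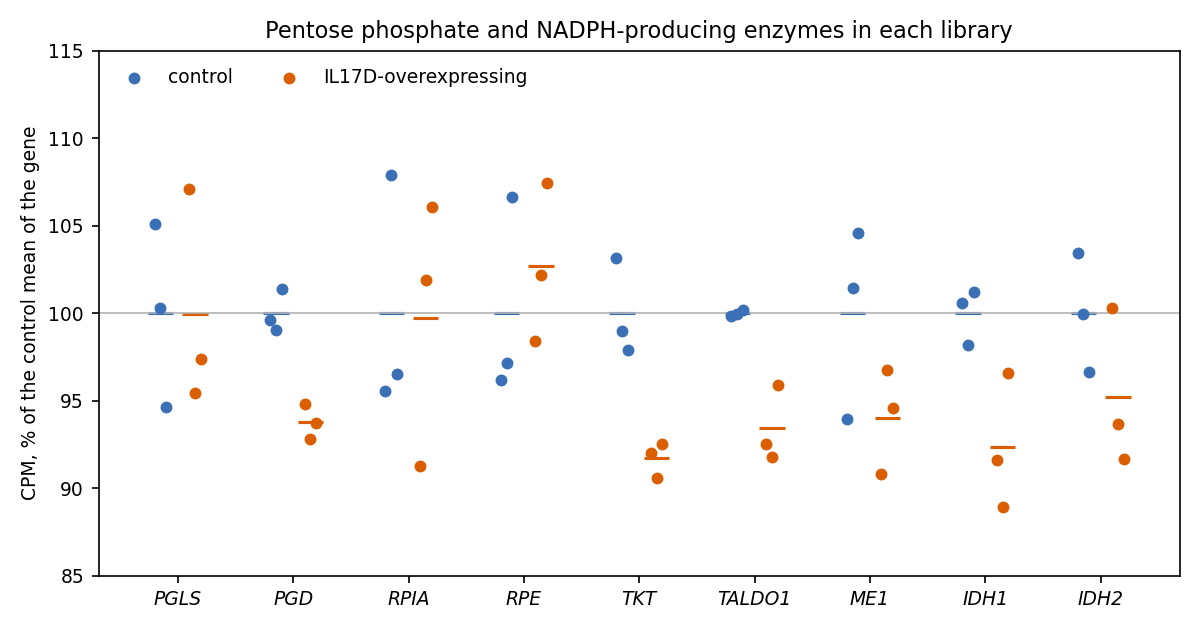
Level of the 9 enzyme genes in each library, as CPM (counts scaled to a common library total, TMM-scaled) in percent of the gene's mean in control cells. Points are libraries, 3 control (blue) and 3 IL17D-overexpressing (orange) per gene, and short lines are group means. For PGD, TKT, TALDO1 and IDH1 every IL17D-overexpressing library lies below every control library, and TKT lies at 90.6% to 92.5% of the control mean. For the other 5 genes the groups overlap. The vertical axis does not start at 0.

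In the oxidative branch, PGD encodes 6-phosphogluconate dehydrogenase, which oxidises 6-phosphogluconate to ribulose 5-phosphate and makes NADPH. PGD (ENSG00000142657, GRCh38 chromosome 1, 10398592 to 10420144, plus strand) had 1272, 1264 and 1294 CPM in control replicates 1, 2 and 3. In IL17D-overexpressing replicates 1, 2 and 3 it had 1211, 1185 and 1197 CPM. The groups did not overlap, and group means were 1277 ± 15.5 CPM in control and 1197 ± 13.1 CPM in IL17D-overexpressing cells (SD, n = 3 per group). The log2 fold change was -0.092 (standard error 0.027, 95% interval -0.15 to -0.038), and edgeR's quasi-likelihood test gave an adjusted p of 0.077. PGD passed with 2 other tools, with an adjusted p of 0.045 in DESeq2's Wald test and of 0.017 in limma voom. Both were given the same genes, but DESeq2 leaves genes of low mean count out of its adjustment. Its value lies near the threshold, and whether the call holds with adjustment over all tested genes was not tested.

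PGLS encodes 6-phosphogluconolactonase, which hydrolyses the lactone upstream of PGD. PGLS (ENSG00000130313, chromosome 19, 17511629 to 17521288, plus strand) had 47.0, 44.8 and 42.3 CPM in the control libraries and 47.8, 42.6 and 43.5 CPM in the IL17D-overexpressing libraries. The groups overlapped throughout. The log2 fold change was 0.00028, with a 95% interval from -0.13 to 0.13, and its sign changed when single libraries were left out. Thus a difference of the size seen in PGD lies inside the interval of PGLS and was not detectable at this depth.

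The non-oxidative branch begins with an isomerase and an epimerase that act on ribulose 5-phosphate. RPIA, the ribose 5-phosphate isomerase, provides the sugar for nucleotides. RPIA (ENSG00000153574, chromosome 2, 88691644 to 88750935, plus strand) was the least abundant member, with 379 to 423 counts in every library. It had 24.1, 27.2 and 24.4 CPM in control and 23.0, 25.7 and 26.8 CPM in IL17D-overexpressing libraries. The log2 fold change was -0.0038 (95% interval -0.18 to 0.17) and its sign also changed without single libraries.

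RPE, the ribulose-5-phosphate-3-epimerase, makes xylulose 5-phosphate for transketolase. RPE (ENSG00000197713, chromosome 2, 210002565 to 210022259, plus strand) had 68.6, 69.3 and 76.0 CPM in control and 70.2, 72.9 and 76.6 CPM in IL17D-overexpressing libraries. Each IL17D-overexpressing library fell within or just above the control range, with a log2 fold change of 0.037 (95% interval -0.074 to 0.15, adjusted p = 0.87 from edgeR's test). Counts of RPE are less certain than those of the other members. Of its 31-base transcript stretches, 40.8% also occur in other genes, mainly in KANSL1L (21.2% of the stretches), which overlaps RPE on the opposite strand, and in RPEL1, a copy of RPE. RPEL1 had 3, 2 and 6 counts in control and 12, 13 and 6 counts in IL17D-overexpressing libraries, and did not pass the filter. For the other 8 members, at most 9.50% of the stretches occur elsewhere.

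TKT and TALDO1 carry out the carbon transfers of the non-oxidative branch. TKT encodes transketolase, a thiamine-dependent enzyme that moves 2-carbon units between sugar phosphates. TKT (ENSG00000163931, chromosome 3, 53224707 to 53256052, minus strand) was the most abundant member by counts and ranked 32 of the 15754 tested genes by mean CPM. It had 2129, 2043 and 2020 CPM in control replicates 1, 2 and 3, and 1899, 1870 and 1910 CPM in the IL17D-overexpressing replicates. All 3 IL17D-overexpressing libraries lay below the lowest control library, control replicate 3. Group means were 2064 ± 57.5 CPM in control and 1893 ± 20.8 CPM in IL17D-overexpressing cells (SD, n = 3 per group). The log2 fold change was -0.12 (standard error 0.026, 95% interval -0.18 to -0.072), and edgeR's quasi-likelihood test gave an adjusted p of 0.0049. TKT ranked 100 of all tested genes by p. It passed in all 12 alternative analyses, with adjusted p-values from 0.00027 to 0.039. The related genes TKTL1 and TKTL2 had at most 10 and 1 counts in any library.

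TALDO1 encodes transaldolase, which moves 3-carbon units in the same branch. TALDO1 (ENSG00000177156, chromosome 11, 747329 to 765024, plus strand) had 338, 339 and 340 CPM in the control libraries, which differed less among themselves than those of any other member. In the IL17D-overexpressing libraries it had 314, 311 and 325 CPM. The groups did not overlap, and the log2 fold change was -0.099 (standard error 0.034, 95% interval -0.17 to -0.030), but the adjusted p was 0.17 from edgeR's test and stayed above the threshold in all 12 alternatives.

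**Figure D2:**
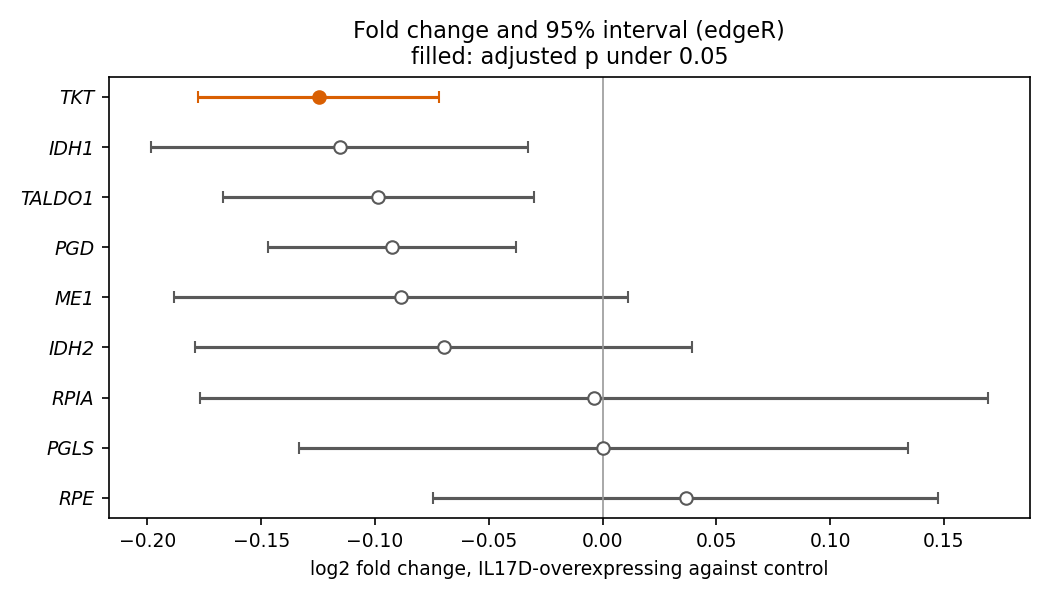
Log2 fold change of each enzyme gene between IL17D-overexpressing and control cells (points) with its 95% interval (bars) from edgeR's fit with 3 libraries per group. The filled point is TKT, with -0.12 and an adjusted p of 0.0049. The intervals of IDH1, TALDO1 and PGD also lie below 0, and those of the other 5 genes include 0.

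Outside the pathway, ME1 encodes the cytosolic malic enzyme, which makes NADPH while converting malate to pyruvate. ME1 (ENSG00000065833, chromosome 6, 83210389 to 83431071, minus strand) had 92.1, 99.3 and 102 CPM in control and 88.9, 94.8 and 92.6 CPM in IL17D-overexpressing libraries. Control replicate 1 lay among the IL17D-overexpressing libraries, so the groups overlapped. The log2 fold change was -0.089 (standard error 0.049, 95% interval -0.19 to 0.011, adjusted p = 0.52 from edgeR's test).

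IDH1 and IDH2 encode the NADP-dependent isocitrate dehydrogenases of the cytosol and of the mitochondria. IDH1 (ENSG00000138413, chromosome 2, 208236227 to 208266074, minus strand) had 171, 167 and 172 CPM in control and 156, 152 and 165 CPM in IL17D-overexpressing libraries. The groups did not overlap, and IL17D replicate 3 came closest to the controls. The log2 fold change was -0.12 (standard error 0.041, 95% interval -0.20 to -0.033), nearly that of TKT, but with the larger error the adjusted p was 0.20 from edgeR's test. IDH2 (ENSG00000182054, chromosome 15, 90083045 to 90102504, minus strand) had 74.4, 71.9 and 69.5 CPM in control and 72.2, 67.4 and 65.9 CPM in IL17D-overexpressing libraries. These ranges overlapped, and the log2 fold change was -0.070 (standard error 0.054, 95% interval -0.18 to 0.039, adjusted p = 0.69 from edgeR's test).

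Summed over the 9 members, the libraries held 4216, 4125 and 4141 CPM in control and 3882, 3820 and 3901 CPM in IL17D-overexpressing cells. TKT and PGD make up most of this sum, which therefore follows these genes.

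Levels were next compared between genes after division by length. The ranks and the most and least abundant members named above rest on counts or CPM without this division. With the length of each gene's principal transcript in GENCODE 29, TKT and PGD stood highest in control cells, with 686 ± 19.1 and 677 ± 8.24 CPM per kilobase (SD, n = 3). Their ranges overlapped, so they did not differ beyond their spread. TALDO1 followed with 252 ± 0.479, IDH1 with 69.8 ± 1.11 and PGLS with 43.5 ± 2.27 CPM per kilobase. ME1, RPE and IDH2 had 29.1 ± 1.58, 27.7 ± 1.61 and 26.7 ± 0.906 CPM per kilobase, and each of these overlapped its neighbour. RPIA was lowest with 13.7 ± 0.937 CPM per kilobase. The order depends on the length used. The count table gives TKT a length of 9507 bases against 3010 for the principal transcript, and with the table's lengths PGD (430 ± 5.24) stood above TKT (217 ± 6.05) and PGLS (15.7 ± 0.821) stood next to RPIA.

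**Figure D3:**
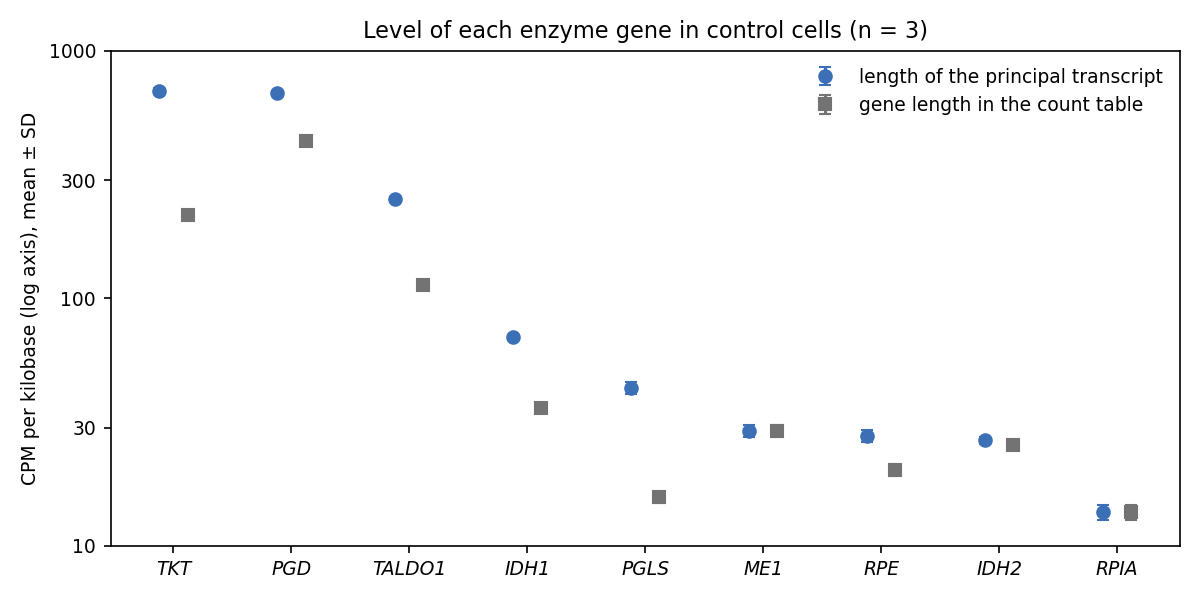
Level of each enzyme gene in control cells on a log axis, in CPM per kilobase, as mean ± SD of 3 libraries. Circles use the length of the principal transcript and squares the gene length in the authors' table. TKT and PGD are highest and RPIA is lowest with either length, while TKT drops from 686 to 217 CPM per kilobase with the table's length.

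Ratios of a pair of members within a library do not depend on how libraries are scaled, and 6 were compared. The log2 ratio of PGD to TKT, which sets the oxidative against the non-oxidative branch, was -0.69 ± 0.051 in control and -0.66 ± 0.012 in IL17D-overexpressing libraries (SD, n = 3 each; exact permutation test, two-sided, p = 0.40). That of PGD to TALDO1 was 1.91 ± 0.015 and 1.92 ± 0.035, and that of TALDO1 to TKT -2.61 ± 0.042 and -2.58 ± 0.023. The log2 ratio of IDH1 to IDH2, the cytosolic against the mitochondrial enzyme, was 1.24 ± 0.058 and 1.20 ± 0.11. For RPIA to RPE the values were -1.50 ± 0.15 and -1.54 ± 0.057, and for ME1 to IDH1 -0.80 ± 0.084 and -0.77 ± 0.083. All 6 differences were smaller than the larger SD of the pair of groups (exact p of 0.40 to 1, and 0.96 to 1 after Benjamini-Hochberg adjustment over the 6 ratios). With 3 libraries against 3, this test cannot give a p under 0.1.

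Sequence upstream of the start sites was examined because several members are known NRF2 targets. NRF2 binds the antioxidant response element, whose core was searched as TGACNNNGC on both strands, in windows from 250 bases before to 50 bases after each RefSeq start site (GRCh38.p14). Of the 10 windows of the 9 members (IDH1 has 2), 4 held a match, in PGD, RPE, ME1 and IDH1, compared with 13.3% of the 35116 windows of all genes. The motif CACGTG, the E-box, was in none of the 10 windows, compared with 7.26% of all windows. A match is a run of letters and not a measured binding site. The windows of TKT and TALDO1 held neither motif, and the windows of PGD, IDH1 (both) and IDH2 lie inside the annotated genes, downstream of the gene's outermost start.

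The stretches below come from the 4 members whose groups did not overlap and from ME1 and RPE, which hold a match and whose groups overlapped. Each is written 5′ to 3′ on the strand of the gene, lies before the RefSeq start site, leaves out annotated exons and has the match in capitals. The match in PGD lies on the opposite strand and therefore reads as its reverse complement.
TKT (chr3:53256053-53256172, minus strand): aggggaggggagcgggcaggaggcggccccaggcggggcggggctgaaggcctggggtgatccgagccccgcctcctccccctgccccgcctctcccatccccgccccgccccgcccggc
TALDO1 (chr11:747214-747328, plus strand): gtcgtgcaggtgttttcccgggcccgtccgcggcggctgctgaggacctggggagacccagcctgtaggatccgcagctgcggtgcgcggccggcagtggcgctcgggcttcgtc
PGD (chr1:10398814-10398933, plus strand): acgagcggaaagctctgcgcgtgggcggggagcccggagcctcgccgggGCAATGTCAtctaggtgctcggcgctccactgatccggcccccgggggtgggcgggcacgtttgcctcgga
IDH1 (chr2:208255151-208255270, minus strand): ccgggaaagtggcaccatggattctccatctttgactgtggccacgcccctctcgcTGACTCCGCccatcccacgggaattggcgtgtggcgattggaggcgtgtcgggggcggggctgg
ME1 (chr6:83431125-83431244, minus strand): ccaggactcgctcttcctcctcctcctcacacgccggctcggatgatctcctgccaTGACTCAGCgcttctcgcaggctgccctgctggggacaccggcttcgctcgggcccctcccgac
RPE (chr2:210002431-210002550, plus strand): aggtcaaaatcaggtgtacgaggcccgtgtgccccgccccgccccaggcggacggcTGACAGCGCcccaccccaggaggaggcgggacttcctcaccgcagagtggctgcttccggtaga

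The match lies 201 bases before the start site in PGD, 143 in IDH1, 137 in ME1 and 151 in RPE, counted to its first base on the gene's strand. ME1 has a second match within its first exon. Of the 4 members with a match, PGD and IDH1 were lower in every IL17D-overexpressing library, whereas ME1 and RPE overlapped the controls. TKT, the only member that passed the test, had no match in this window.

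The members were set beside 5 lists of related genes. Of 15 other pentose and ribose phosphate genes, 9 were tested and none passed edgeR's test, with 1 lower and 1 higher at an unadjusted p under 0.05 and none called by DESeq2 or limma voom either. The median log2 fold change was -0.056. The smallest p belonged to H6PD, which makes NADPH in the endoplasmic reticulum. H6PD had 77.7, 75.6 and 74.0 CPM in control and 67.0, 70.9 and 69.2 CPM in IL17D-overexpressing libraries, which did not overlap (log2 fold change -0.13, standard error 0.052, adjusted p = 0.26 from edgeR's test). The gene with the higher level was PRPS2, a ribose-phosphate pyrophosphokinase, with 73.8, 80.1 and 79.5 CPM in control and 80.8, 88.1 and 86.1 CPM in IL17D-overexpressing libraries, which did not overlap either (log2 fold change 0.13, adjusted p = 0.29 from edgeR's test). Of 16 other NADP-linked and mitochondrial redox enzymes, 15 were tested with a median of -0.037, and none passed edgeR's test, with 1 at an unadjusted p under 0.05. DESeq2 and limma voom called none either, with 0 and 1 at an unadjusted p under 0.05. That gene was NNT, the mitochondrial transhydrogenase, which had 32 to 52 counts in control and 15 to 37 in IL17D-overexpressing libraries (log2 fold change -0.61, standard error 0.29, adjusted p = 0.40 from edgeR's test). Without IL17D replicate 3, the library with 15 counts, the log2 fold change of NNT was -0.36.

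Enzymes that use NADPH included larger falls than those of the members. Of 23 NADPH-using reductases, all tested, 6 passed and all 6 were lower, against 0.908% of all tested genes called lower. The median was -0.055 over the list, and 4 to 7 of its genes passed in the 12 alternatives. The 5 genes of the list with the smallest p were aldo-keto reductases. AKR1C2 fell by 18.4% (log2 fold change -0.29, adjusted p = 3.5e-09 from edgeR's test). AKR1B10, AKR1C3 and AKR1C1 had log2 fold changes of -0.23, -0.27 and -0.30 (adjusted p = 3.9e-08, 1.0e-07 and 3.3e-07 from edgeR's test). AKR1B1 fell by 9.15%, close to the change of TKT (log2 fold change -0.14, adjusted p = 0.0088 from edgeR's test). It lost the call, with a fold of similar size, without control replicate 1 (log2 fold change -0.12, adjusted p = 0.065), IL17D replicate 1 (-0.13, 0.089) or IL17D replicate 2 (-0.13, 0.053). AKR1C1 and AKR1C2 share sequence, with 35.1% and 47.3% of the 31-base stretches of each found in the other, so the split of reads between them is uncertain. Of the stretches of AKR1B10, 31.3% occur in other genes, mainly in AKR1B15 (18.8% of the stretches). AKR1B15 had 259 to 403 counts per library, and AKR1B10 had at least 36016. In the same list GSR, TXNRD1 and NQO1 had log2 fold changes of -0.037, 0.0057 and 0.013 and did not pass the test.

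Of 22 NRF2 target genes outside the members, all tested, 19 had a lower and 3 a higher level, with a median log2 fold change of -0.085, and 6 passed, all lower. Over all tested genes, 7896 of 15754 had a lower level and 0.908% were called lower. The number called in the list of NRF2 targets ranged from 4 to 7 over the 12 alternatives. AKR1B10, AKR1C1 and GSR are in this list as well. The 3 genes with a higher level were NQO1, TXNRD1 and TXN, with log2 fold changes of 0.013, 0.0057 and 0.00022. Neither these nor GSR (-0.037) passed edgeR's test. ABCC3, an export pump for conjugates, fell by 16.0% (adjusted p = 1.2e-06 from edgeR's test), and GPX2, a glutathione peroxidase, fell by 13.7% (adjusted p = 7.5e-05). FTL, the ferritin light chain, fell by 7.56% (log2 fold change -0.11, adjusted p = 0.016 from edgeR's test). It stayed lower but lost the call without control replicate 3 (log2 fold change -0.082, adjusted p = 0.096), IL17D replicate 1 (-0.094, 0.20) or IL17D replicate 3 (-0.11, 0.14). Of the stretches of FTL, 33.3% occur in other genes. Transcripts of NRF2 itself (NFE2L2) and of KEAP1 had log2 fold changes of 0.081 and -0.00092, neither of which passed (adjusted p = 0.615 and 0.998 from edgeR's test). Of the 6 tested genes of the list of NRF2 and its regulators, 1 passed, MAFK, which encodes a small MAF protein that pairs with NRF2. MAFK had 323, 353 and 298 CPM in control and 365, 342 and 385 CPM in IL17D-overexpressing libraries, which overlap (log2 fold change 0.17, adjusted p = 0.040 from edgeR's test), and 0.673% of all tested genes were called higher. MAFK was not called without control replicate 1 (adjusted p = 0.11), control replicate 3 (0.20, with a log2 fold change of 0.11), IL17D replicate 1 (0.13) or IL17D replicate 3 (0.34), nor by DESeq2 (0.54).

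**Figure D4:**
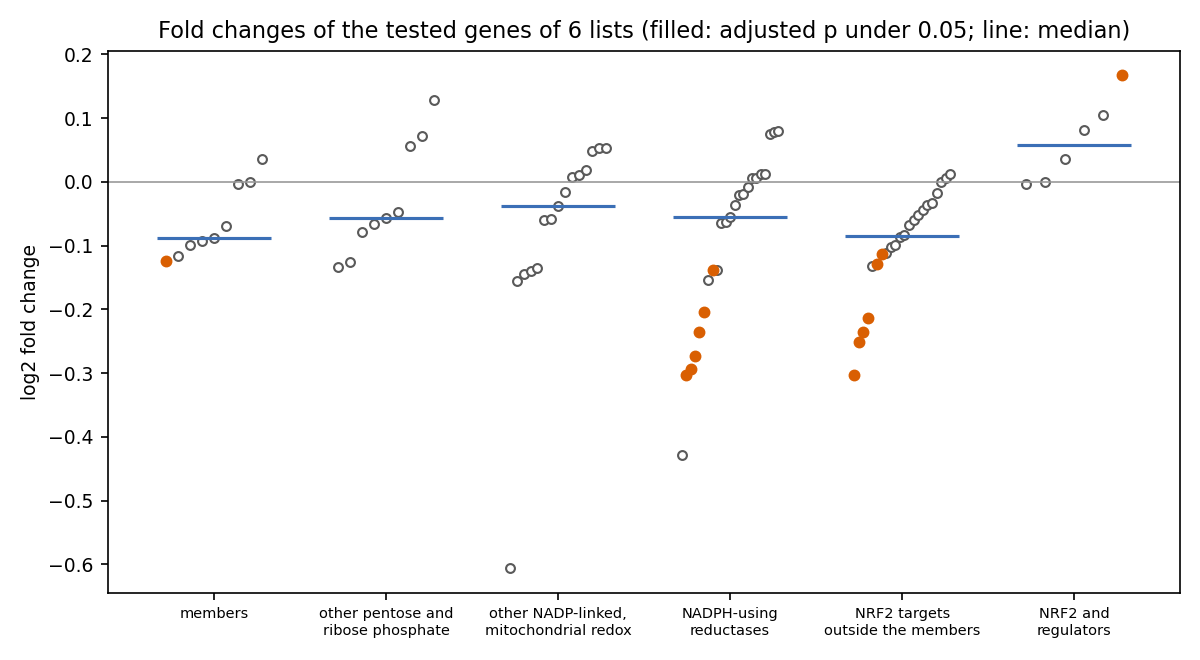
Log2 fold changes between IL17D-overexpressing and control cells for the tested genes of 6 lists, from edgeR's fit. Each point is a gene, filled where its adjusted p was under 0.05, and the blue line is the median of the list. The median is -0.089 for the members and -0.085 for the other NRF2 target genes, and the largest falls among filled points are those of AKR1C1, AKR1C2 and AKR1C3.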

How the data were processed

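RNA-seq of 3 IL17D-overexpressing and 3 empty-vector (control) A549 libraries was analysed. The authors deposited raw counts per gene, without normalization. The submitters' processing notes name Bowtie2 and hg38. The counting tool and its strand setting are not given in the sources used here. Start and end of all 9 members equal those in GENCODE 29 (GRCh38).

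The counts were filtered with filterByExpr, scaled by TMM and tested with edgeR 4.0.16 (glmQLFit, glmQLFTest) in R 4.3.3, without covariates. Tests are two-sided, and p-values were adjusted over all tested genes. The exception is DESeq2's Wald test, whose independent filtering leaves genes of low mean count out of the adjustment. CPM are TMM-scaled. Intervals use the fit's degrees of freedom. Alternatives were DESeq2 1.42.0 (size factors, Wald test), limma 3.58.1 (voom), 2 other filters, a replicate block and fits without each library in turn. The code was also run on counts simulated from the mean levels and fitted spread of these libraries. Such a run checks it only under the model's own assumptions, and its outcome is not given here. The members and lists were chosen with earlier results of these data known. All members, IL17D, and up to 5 genes per context list with the smallest p among those called (otherwise the 1 smallest) are named. GSR, TXNRD1, NQO1, TXN, NFE2L2, KEAP1, PRPS2, AKR1B15, the RPE and TKT copies and the cell markers were named after their values were seen. Promoters are RefSeq sequences, and all 9 members matched by symbol.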

Additional observations from a re-analysis of the deposited data

How the results depend on the processing

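The number of members with an adjusted p under 0.05 was 1 in edgeR's test and 2 with DESeq2's Wald test and with limma voom, where PGD joined TKT. It was 1 with DESeq2's size factors, with both other filters, with the replicate block and without each library in turn. TKT, PGD, TALDO1, ME1, IDH1 and IDH2 kept a lower level and RPE a higher level in all 12 alternatives, but the size was less stable for 3 of them. Without single libraries the log2 fold change ranged from -0.13 to -0.053 for ME1 (lowest in size without control replicate 3), from -0.11 to -0.043 for IDH2 (largest without IL17D replicate 1, smallest without control replicate 1 or IL17D replicate 3) and from 0.0053 (without IL17D replicate 3) to 0.087 (without control replicate 3) for RPE, which is near 0 at its lowest. PGLS had a log2 fold change of -0.0018 on all genes with at least 1 count and of -0.00060 with the replicate block, and it ranged from -0.052 to 0.040 when single libraries were left out. RPIA ranged from -0.047 to 0.058 when single libraries were left out. The list of NRF2 and its regulators had 0 called genes with DESeq2's Wald test, and 0 to 1 without single libraries. Over all genes, 249 were called, against 155 without IL17D replicate 1 and 145 without IL17D replicate 3. Deviations of libraries with the same replicate number correlated at -0.015 to 0.0100, so no shared deviation by number was seen. Whether libraries were paired is not stated, and with 3 libraries per group these correlations cannot decide it. None of the 6 libraries correlated best with its own number, and the replicate block called 272 genes over all. Libraries of a group differed by more than counting error (chi-square 2.19 to 3.39 times its degrees of freedom). At this depth, changes of the size fitted for PGD lie inside the intervals of PGLS, RPIA and IDH2.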
